A study of Mus musculus with 15 samples.

Results

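The response of naive NSD2 KO mouse embryonic fibroblasts to 2 h of interferon beta was measured in 3 of the 15 RNA-seq libraries of the series, chosen by their titles: 2 libraries of untreated cells (0 h) and 1 library of treated cells (2 h). The 2 h side therefore has no replicate of its own. Mouse embryonic fibroblasts (MEFs) are connective tissue cells grown from embryos. The cells are labelled c57bl/6 and NSD2 KO, and no source used here gives the allele, the age or the number of clones or embryos. NSD2 is a histone methyltransferase that places methyl groups on lysine 36 of histone H3, and the files list it under its older symbol, Whsc1. All cells grew in DMEM with donor bovine serum, and treated cells received mouse recombinant interferon beta at 100 units per ml. For comparison, WT naive cells of the same strain label (2 libraries at 0 h, 2 at 2 h) had the same treatment, and pretreated NSD2 KO cells (2 and 2 libraries) had received interferon for 3 h, were washed, rested 24 h without it and were then restimulated for 2 h. Nothing in the labels ties a library to its own culture or embryo, so a p-value here reflects spread among libraries, which may be technical.

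Interferon beta is a secreted antiviral cytokine that fibroblasts both make and sense. It binds the receptor subunits IFNAR1 and IFNAR2, which activate the kinases JAK1 and TYK2. These phosphorylate STAT proteins, among them STAT2, which acts with IRF9 in the complex ISGF3. ISGF3 enters the nucleus and binds the interferon-stimulated response element (ISRE) in promoters of antiviral genes, and a different element, GAS, is bound by other STAT complexes. The proteins made then block viral translation, degrade viral RNA, present viral peptides and attract immune cells, and others switch the receptor off again.

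The letters of that element stand in the promoters of many, but not all, of the genes whose transcripts rose most here. The 4 sequences below were chosen to show this, from an antiviral RNA-binding protein (Ifit1), viperin (Rsad2), a guanylate-binding protein (Gbp2) and a chemokine (Cxcl10). Each is the 250 bases before the RefSeq transcription start in GRCm38.p6, written 5′ to 3′ on the gene's own strand. Capitals mark every match to the ISRE core GAAANNGAA on either strand, and a match on the other strand shows as the reverse complement of that core.
Ifit1: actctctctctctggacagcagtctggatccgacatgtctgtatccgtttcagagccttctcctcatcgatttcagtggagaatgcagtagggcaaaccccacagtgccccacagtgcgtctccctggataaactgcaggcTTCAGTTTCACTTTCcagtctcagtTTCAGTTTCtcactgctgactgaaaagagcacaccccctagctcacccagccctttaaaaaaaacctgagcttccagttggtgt
Rsad2: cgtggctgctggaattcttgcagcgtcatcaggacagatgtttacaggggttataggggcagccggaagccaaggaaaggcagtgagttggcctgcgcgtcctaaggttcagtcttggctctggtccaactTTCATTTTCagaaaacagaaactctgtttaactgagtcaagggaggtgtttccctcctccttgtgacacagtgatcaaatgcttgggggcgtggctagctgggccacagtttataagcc
Gbp2: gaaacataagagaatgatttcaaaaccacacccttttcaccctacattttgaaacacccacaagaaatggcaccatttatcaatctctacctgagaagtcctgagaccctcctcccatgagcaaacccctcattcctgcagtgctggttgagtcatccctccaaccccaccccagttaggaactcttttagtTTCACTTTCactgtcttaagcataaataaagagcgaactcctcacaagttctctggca
Cxcl10: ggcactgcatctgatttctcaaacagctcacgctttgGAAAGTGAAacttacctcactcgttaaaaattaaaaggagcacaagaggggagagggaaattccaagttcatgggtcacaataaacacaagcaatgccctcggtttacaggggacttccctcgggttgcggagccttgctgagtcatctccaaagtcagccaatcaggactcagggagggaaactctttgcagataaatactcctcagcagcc
Ifit1 (chr19:34640639-34640888, plus strand) has 3 matches, 2 of them overlapping, whose first bases lie at -109, -103 and -84 relative to the start. In Rsad2 (chr12:26456453-26456702, minus strand) the match begins at -119, in Gbp2 (chr3:142620413-142620662, plus strand) at -58 and in Cxcl10 (chr5:92348890-92349139, minus strand) at -213. A match is a stretch of letters and not a measured binding site.

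Values below are CPM, the usual depth-scaled read count, here scaled to effective library size and given for 0 h replicate 1, 0 h replicate 2 and the 2 h library in that order, and fitted log2 changes ± SE from edgeR's quasi-likelihood test over all 15 libraries. A gene is called, and is said to rise or fall, where the Benjamini-Hochberg adjusted p over 13802 tested genes is below 0.05. The 2 h library entered with the spread estimated from the replicated groups. CPM of different genes are not compared, since transcript lengths are not in the files.

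At 2 h a small set of transcripts rose very steeply and a large set shifted slightly. EdgeR called 5002 of 13802 genes (36.2%), of which 2632 (19.1%) were higher and 2370 (17.2%) lower. Of these, 4270 changed by less than 2-fold, and the median size of a called change was 0.41 on the log2 scale. At least 2-fold rises numbered 515 (3.73%) and falls of that size 217 (1.57%); rises of at least 4-fold numbered 260 (1.88%) against 28 falls (0.203%). There were 166 rises (1.2%) of at least 8-fold and 52 (0.377%) of at least 64-fold. The median change over all tested genes was -0.013. The response was therefore lopsided at large sizes and nearly even at small ones. The shares of 19.1% higher and 17.2% lower are the background for every list count of this comparison below.

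Most of the steep risers were under 1 CPM before treatment. Of the 260 genes that rose at least 4-fold, 143 were under 1 CPM in both 0 h libraries and 17 had no count there, while 137 reached at least 10 CPM and 48 at least 100 CPM at 2 h. Their median went from 0.626 to 12.3 CPM. Together they held 0.175% and 0.173% of all gene counts at 0 h and 1.752% at 2 h. The share of all tested genes under 1 CPM at 0 h is not given here, so these counts have no background. A gene that low at 0 h can be tested through its 2 h count, so a low start is partly set by the choice of genes. The 217 genes that fell at least 2-fold were thinly expressed: their median went from 2.59 to 1.09 CPM, 75 had at least 5 CPM at 0 h, and 3 had no count at 2 h. Among the 9758 genes with at least 5 CPM at 0 h, none differed 2-fold between the 0 h libraries, whereas the 2 h library lay at least 2-fold above both for 201 and at least 2-fold below both for 60. Falling outside the range of 2 libraries is common in itself, since 85.6% of tested genes did so. All 2632 genes called higher lay above both 0 h libraries, and all 2370 called lower lay below both. Statements below that a called gene lay outside the 0 h libraries therefore add nothing to its call.

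The libraries held 23961120 and 40149786 gene counts at 0 h and 29206630 at 2 h, within the series' range of 17170845 to 44116418. The ribosomal transcript Rn45s and Lars2 took 25.1%, 24.6% and 29.2% of them. WT naive 0 h replicate 1 stood apart in the series at 10.6%. Its levels enter only the comparison with WT. Like all 15 libraries, it also enters the scaling and the shared estimate of spread behind every test. Of 12 fibroblast markers none was at 0 counts, and their sum was 9540, 9634 and 8999 CPM. Of 15 macrophage and blood markers 7 had no count in any of the 3 libraries, and the sum was 7.37, 8.63 and 5.96 CPM. Plasmacytoid and dendritic cell markers, the classic interferon producers, summed to 128, 132 and 186 CPM with 2 of 8 at 0; Bst2, itself induced by interferon, was the 1 member that rose (9.47, 7.79 and 51.2 CPM). Skeletal muscle markers summed to 4.08, 3.65 and 11.4 CPM, with 4 of 10 at 0, and Acta1 rose from 2.18 and 2.1 to 9.33 CPM; their part in other results was not tested. In bulk libraries, a change in cell numbers cannot be told apart from a change in RNA per cell. Whsc1 itself had 95.6, 99.7 and 100.1 CPM and a log2 change of 0.034 ± 0.058 (adjusted p = 0.695). Such a whole-gene count is no check of a partial deletion.

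At the end of the receptor pathway Stat2 and Irf9 rose, while the receptor and its kinases moved little. Stat2 had 21.5 and 22.4 CPM at 0 h and 211 CPM at 2 h. The treated library lay far above both untreated ones, a 9.59-fold rise (log2 change 3.26 ± 0.069, adjusted p = 6.53e-26). Irf9, the DNA-binding subunit of ISGF3, went from 21.7 and 19.8 to 110.1 CPM (log2 change 2.41 ± 0.075). Neither gene overlapped between 0 h and 2 h. Jak2, a kinase of the interferon gamma receptor, rose from 47.3 and 49.4 to 83.3 CPM, and Ifnar1 from 88.6 and 85.7 to 103 CPM (adjusted p = 0.00117). Ifnar2 had 23, 25.4 and 26.6 CPM, Jak1 149.5, 151 and 157 CPM and Tyk2 42.5, 41.6 and 41.9 CPM, none of which passed the test (adjusted p = 0.285, 0.372 and 0.988). Stat3, Stat5a and Stat5b did not pass either, with log2 changes of 0.014, -0.12 and 0.090.

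Of 9 interferon regulatory factors and their binding proteins, 4 rose and 1 fell. Irf7, the factor that amplifies interferon production, went from 1.43 and 1.5 to 68 CPM, a 46.1-fold rise (log2 change 5.53 ± 0.10, adjusted p = 2.83e-27). Irf1 went from 29.7 and 31.9 to 176 CPM and Irf5 from 22.5 and 21.4 to 89.4 CPM. Irf2, an antagonist of Irf1, rose from 7.56 and 8.16 to 24.5 CPM. Irf3, the constitutive factor that waits for a viral signal, had 26.5, 29.2 and 26.5 CPM (log2 change -0.076 ± 0.096, adjusted p = 0.585). The interferon ligands themselves were almost silent. Of 21 listed, 6 had any count in these 3 libraries and 1 could be tested; Ifnz had 0.277, 0.327 and 0.262 CPM (adjusted p = 0.864), and Ifnb1 had no count in any of them.

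Of 17 tested brakes of the pathway, 8 rose, 2 fell and 7 were not called (median log2 change 0.17). The shares that rose and fell were 47.1% and 11.8%, against 19.1% and 17.2% over all tested genes. Usp18, which strips ISG15 from proteins and blocks IFNAR2 from within, went from 2.18 and 1.45 to 312 CPM. Both untreated libraries were low and the rise was 180.2-fold (log2 change 7.49 ± 0.10, adjusted p = 1.99e-30). Socs1, an inhibitor of JAK kinases, went from 3.96 and 3.53 to 46.1 CPM (12.4-fold). Ptpn2, a phosphatase of the pathway, rose from 31.8 and 29.2 to 48.1 CPM, and Socs5 from 90.5 and 90.3 to 116 CPM. Pias3, an inhibitor of STAT3, fell from 21.8 and 21.5 to 12.6 CPM (log2 change -0.78 ± 0.11). Socs3, a feedback inhibitor of cytokine receptors, had 34.6, 34.4 and 30.9 CPM and did not pass (adjusted p = 0.172).

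The genes that block viral RNA gave some of the steepest rises. All 6 IFIT genes rose, with a median log2 change of 8.38, and so did all 4 genes of the Mx and viperin list (8.57). Ifit1, whose product binds viral RNA lacking a host cap, went from 3.6 and 2.64 to 1153 CPM. Ifit3 went from 2.5 and 2.01 to 637 CPM (289.9-fold). Ifit2 started higher, at 38 and 37.8 CPM, and reached 593 CPM (15.7-fold). Each of the 3 was far above both untreated libraries at 2 h. I830012O16Rik, an Ifit3-like gene, rose from 0.356 and 0.468 to 167 CPM; its reads and those of Ifit3 come from near-identical copies, so their split is uncertain. Gm14446 beside them rose from 0.356 and 0.0935 to 185 CPM (log2 change 9.89 ± 0.16, adjusted p = 8.36e-29).

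Viperin, encoded by Rsad2, makes a chain-terminating nucleotide. Its transcript had 0.713 and 0.491 CPM at 0 h and 304 CPM at 2 h (log2 change 9.04 ± 0.11, adjusted p = 5.61e-31). Cmpk2, a nucleotide kinase that stands next to it in the genome, went from 0.713 and 0.491 to 150.3 CPM (260.1-fold). The Mx proteins are dynamin-like GTPases that trap viral nucleocapsids. Mx1 went from 0.158 and 0.14 to 127 CPM and Mx2 from 0.594 and 0.327 to 118 CPM. In each of these 4 genes the untreated libraries were below 1 CPM and the treated library was above 100 CPM.

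**Figure D1:**
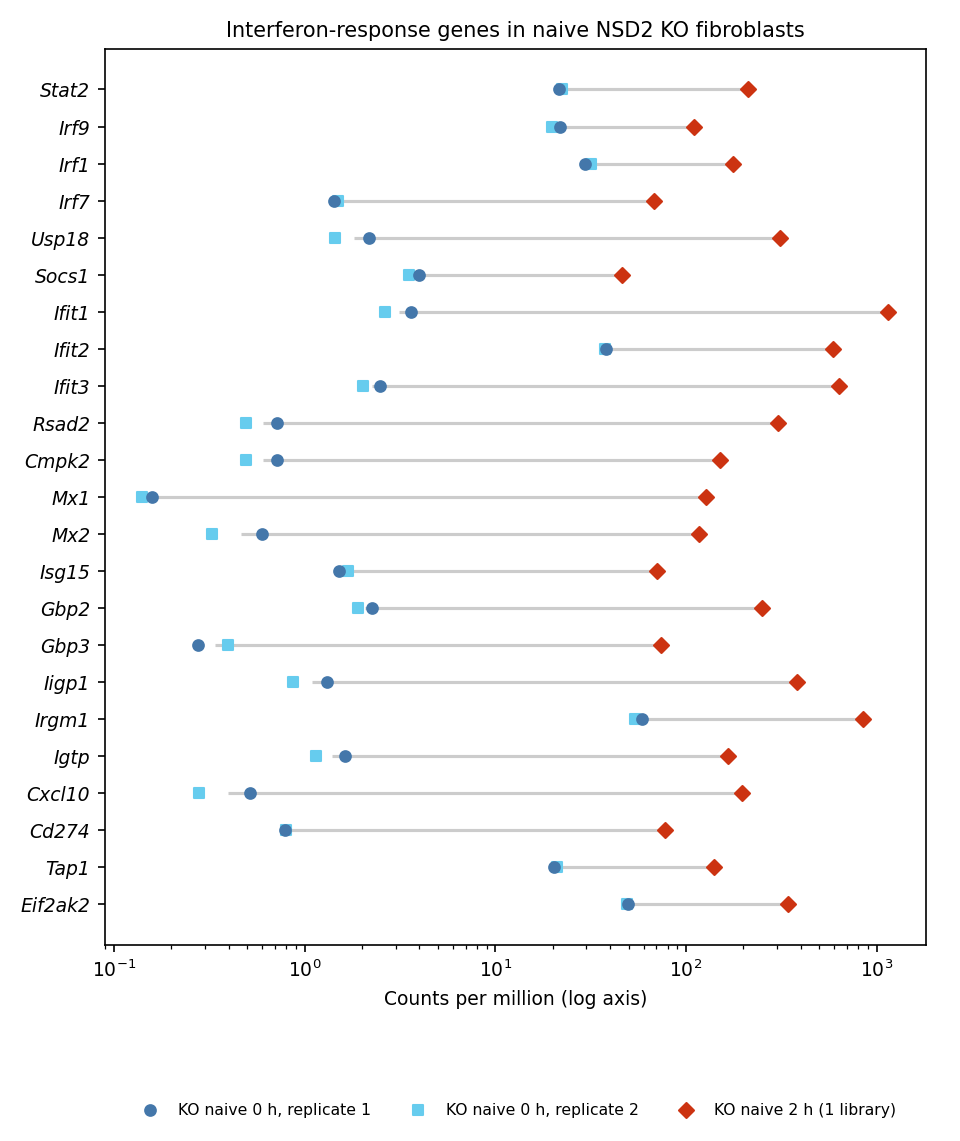
CPM (log axis) of 23 interferon-response genes in the 2 naive KO libraries at 0 h (circles and squares) and the single 2 h library (diamonds), with a grey line joining the 0 h mean to the 2 h value. The 2 h value lies to the right of both 0 h values for every gene shown, from 0.158 and 0.14 to 127 CPM for Mx1 and from 58.6 and 54.3 to 844 CPM for Irgm1.

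The oligoadenylate synthetases sense double-stranded RNA and activate RNase L, and most genes of their list rose. Of 13 listed genes 9 had enough counts to be tested, and all 9 were higher (median 5.4). In a fit without the expression filter the count was 9 of 13. Oasl2 went from 1.47 and 1.38 to 69.5 CPM (49.1-fold) and Oasl1, which restrains translation of Irf7, from 0.356 and 0.21 to 42.3 CPM (157-fold). Oas2 went from 0.396 and 0.21 to 12.1 CPM and Oas1b from 0.713 and 0.468 to 16.2 CPM. Oas1a (0.396 and 0.304 to 14.5 CPM) and Oas1g (no count at 0 h and 1.95 CPM at 2 h, at least 44.2-fold higher) share near-identical sequence, so their separate values are uncertain.

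ISG15 is a ubiquitin-like protein that is joined to other proteins during infection, and 6 of 8 tested genes of its pathway rose (median 2.93). Isg15 went from 1.51 and 1.68 to 70.4 CPM (log2 change 5.44 ± 0.12). Its conjugating enzyme Ube2l6 rose from 13.5 and 13.3 to 63.7 CPM and the ligase Herc6 from 3.68 and 5.21 to 43.1 CPM. Trim25, a ligase for ISG15 and for the RNA sensor RIG-I, rose from 9.7 and 10.7 to 96.4 CPM. The related Herc3 and Herc4, which are not known for this role, had log2 changes of 0.20 and 0.093 and did not pass (adjusted p = 0.57 and 0.266).

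Interferon-inducible GTPases, which attack the membranes around intracellular parasites and bacteria, rose in both families. All 10 guanylate-binding proteins tested were higher, with a median log2 change of 7.04, or 6.6 where members uncounted at 0 h take their lower bound. Without the expression filter 10 of 11 were higher. Gbp2 had 2.26 and 1.89 CPM at 0 h and 251 CPM at 2 h. The separation was 124-fold (log2 change 6.95 ± 0.11, adjusted p = 2.46e-29). Gbp3 went from 0.277 and 0.397 to 73.8 CPM, Gbp7 from 1.62 and 0.678 to 138 CPM and Gbp2b from 0.356 and 0.444 to 67.4 CPM. Gbp6 (0.277, 0.351 and 24.8 CPM) is nearly identical to Gbp10, and its value is uncertain.

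Of 13 immunity-related GTPases tested, 12 rose and 1 fell (median 4.79). Iigp1, an effector that strips pathogen vacuoles, went from 1.31 and 0.865 to 381 CPM (369-fold). Irgm1, a regulator that protects the cell's own membranes, started at 58.6 and 54.3 CPM and reached 844 CPM (15-fold). Irgm2 went from 1.9 and 1.73 to 175 CPM and Igtp from 1.62 and 1.15 to 165 CPM. None of these 4 overlapped between 0 h and 2 h. Gm4951 rose from 0.158 and 0.0935 to 32 CPM and Gm12250 from 0.119 and 0.117 to 33 CPM. The member that fell was Irgq, a quiescent relative without an interferon role, with a log2 change of -0.69 ± 0.090; it was picked out after its value was seen.

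All 18 tested genes of the TRIM and nuclear body list rose (median 3.6, or 3.5 with 0 counts at their bound). In a fit without the expression filter the count was 17 of 19. Trim21, an antibody receptor inside the cell, went from 5.19 and 4.58 to 125 CPM. Daxx, a histone H3.3 chaperone of PML nuclear bodies, went from 25.8 and 24.8 to 194 CPM (log2 change 2.94 ± 0.057, adjusted p = 6.89e-27). Sp100, another nuclear body protein, went from 3.33 and 2.6 to 34.9 CPM. Trim30a rose from 8.08 and 6.31 to 123 CPM, but it has close copies among the Trim30, Trim12 and Trim34 genes.

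All 8 genes of the ADP-ribosyltransferase and Deltex list rose (median 2.97). Parp14 went from 5.7 and 5.92 to 301 CPM (51.6-fold, adjusted p = 7.34e-30). Parp9 and its partner Dtx3l, which form a complex and share a promoter region, went from 12.5 and 11 to 141 CPM and from 10.1 and 11.2 to 181 CPM. Parp10 and Parp12 rose 7.31-fold and 8.4-fold. Of 9 Schlafen genes, regulators of growth and of transfer RNA, 8 rose (median 3.81). Slfn8 went from 1.39 and 0.982 to 72.4 CPM, Slfn9 from 21.7 and 22.3 to 196 CPM and Slfn2 from 3.29 and 3.41 to 47.1 CPM. Slfn14 had 0.0792 and 0.0234 CPM at 0 h and no count at 2 h, and did not pass (adjusted p = 0.404).

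Of 39 further antiviral effectors tested, 35 rose and 0 fell (median 1.93). Without the expression filter 35 of 43 rose. Eif2ak2 encodes PKR, the kinase that halts translation on double-stranded RNA; it went from 49.9 and 49.1 to 343 CPM. Samd9l, a restriction factor, went from 52.1 and 48.1 to 767 CPM (15.4-fold, adjusted p = 2.47e-29). Helz2, a helicase and nuclear receptor coactivator, went from 52 and 48.7 to 479.7 CPM. Rtp4 rose from 1.23 and 1.64 to 89.9 CPM and Tor3a from 22.7 and 23.1 to 229 CPM. Members without a call included the membrane protein Ifitm2, at 115, 110.3 and 122 CPM (adjusted p = 0.144), and Ifi27, at 23.2, 23.9 and 22.9 CPM (adjusted p = 0.805).

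Genes of the sensors that start the interferon response were themselves higher at 2 h. Of 11 RNA sensor genes, 8 rose and 2 fell (median 0.52). Ddx58, which encodes RIG-I, went from 20.4 and 18.7 to 296 CPM and Ifih1, which encodes MDA5, from 1.7 and 1.61 to 75.8 CPM. Tlr3, the endosomal receptor of double-stranded RNA, went from 3.52 and 3.18 to 66.3 CPM (log2 change 4.32 ± 0.092, adjusted p = 6.99e-26). The members that fell were the adaptors downstream of them, Mavs (log2 change -0.54 ± 0.10) and Ticam1 (-0.39 ± 0.12), which were picked out after their values were seen. Of 15 DNA sensor genes, 14 rose and 0 fell (median 3.14). In the p200 family, Ifi203 went from 8.04 and 7.55 to 157 CPM and Ifi204 from 19.2 and 18.9 to 168 CPM. Trex1, the exonuclease that clears DNA from the cytosol, rose from 10.8 and 10.4 to 75.9 CPM.

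Cell death genes rose in 16 of 19 tested cases, with 0 lower (median 0.82). Zbp1, a sensor of Z-form nucleic acid that triggers necroptosis, went from 0.0792 and 0.0701 to 10 CPM. Mlkl, the protein that opens the membrane in that pathway, went from 14.1 and 16.7 to 44.5 CPM. The kinase between them, Ripk3, had 20, 19.5 and 22.4 CPM and did not pass (adjusted p = 0.152). Tnfsf10, the death ligand TRAIL, rose from 0.554 and 0.795 to 41.1 CPM, Xaf1 from 2.34 and 3.69 to 81.7 CPM and Casp4 from 3.37 and 2.78 to 24.2 CPM. Fas, the receptor of another death ligand, rose from 3.64 and 3.39 to 16.3 CPM.

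All 24 tested genes of MHC class I presentation rose (median 1.69). Without the expression filter 24 of 27 rose. Tap1, a subunit of the peptide transporter, went from 20.3 and 21 to 139.8 CPM and Tapbp, which docks class I molecules on it, from 79.3 and 77.3 to 196 CPM. Psmb10, an immunoproteasome subunit, went from 13.9 and 13.9 to 65.3 CPM. Nlrc5, the transactivator of class I genes, rose from 7.56 and 7.18 to 52.7 CPM (log2 change 2.84 ± 0.083, adjusted p = 2.27e-22). The heavy chain gene H2-K1 went from 17.9 and 18.4 to 67.6 CPM, a value that close H2 copies make uncertain.

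Among signals to other cells the picture was mixed. Of 15 chemokine genes, 10 rose and 1 fell (median 1.03). Cxcl10, which draws T cells, went from 0.515 and 0.281 to 197 CPM (log2 change 9.05 ± 0.13, adjusted p = 5.32e-30). The monocyte attractants Ccl2 and Ccl7 went from 4.95 and 5.7 to 116 CPM and from 0.277 and 0.514 to 6.86 CPM. Cxcl12, a chemokine that stromal cells make constantly, moved the other way, from 635 and 598 to 346 CPM (log2 change -0.83 ± 0.055). Cxcl1, a neutrophil attractant under NF-kB, had 3.45, 3.81 and 3.56 CPM (adjusted p = 0.904). Of 22 cytokines and surface signals, 16 rose and 2 fell. Cd274, which encodes the checkpoint ligand PD-L1, went from 0.792 and 0.795 to 77.2 CPM (96.8-fold). Ptgs2, the inducible cyclooxygenase, rose from 55.2 and 52.9 to 417 CPM and Csf1, a growth factor of macrophages, from 166 and 165 to 408 CPM. Of 25 genes of the NF-kB pathway, 16 rose and 0 fell (median 0.53), among them the inhibitor Tnfaip3 (28.6, 30.4 and 100.2 CPM) and Nfkbie (9.39, 8.7 and 31 CPM); Rela did not pass (46.6, 47.9 and 52 CPM, adjusted p = 0.123).

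**Figure D2:**
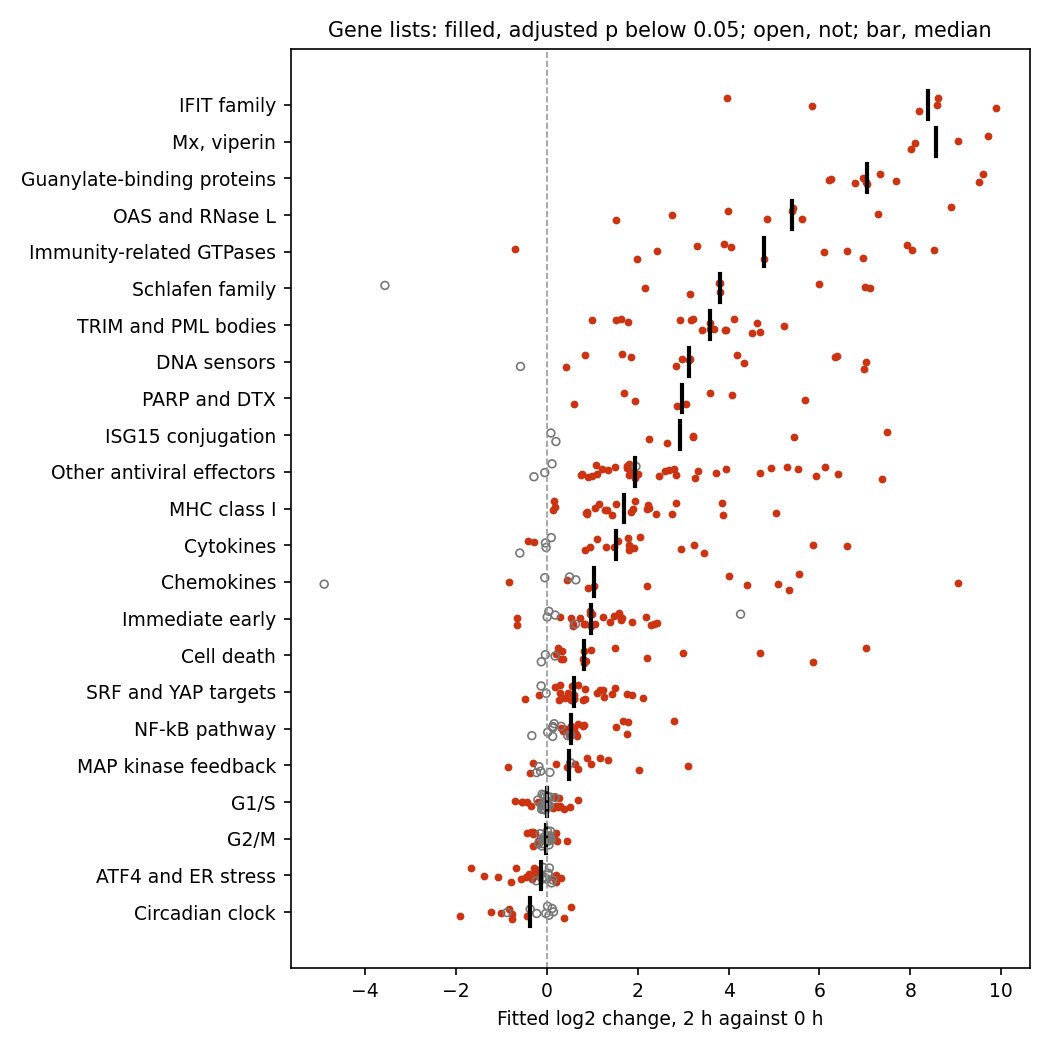
Fitted log2 change of naive KO cells, 2 h against 0 h (x axis), of each tested member of 23 gene lists (rows); filled points passed an adjusted p of 0.05, open points did not, and bars are list medians. The medians run from 8.57 for the Mx and viperin list through 1.69 for MHC class I to -0.36 for the circadian clock, against -0.013 over all tested genes.

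Steep risers lay next to each other in the genome. Gene order came from the RefSeq annotation of GRCm38.p6, in which 259 of the 260 genes that rose at least 4-fold could be placed. Of these, 118 (45.56%) had another such gene as the next tested gene on either side, against 334 (2.48%) of the other tested genes. There were 19 runs of 3 or more, holding 94 genes. The longest, on chromosome 1, held 10 neighbours of the p200 DNA sensor family, from Pydc4 to Ifi205, and the next, on chromosome 11, held 9 genes, Unc45b and 8 Schlafen genes. Other runs were 7 Trim genes on chromosome 7, 6 Ifit family genes on chromosome 19, 6 Oas genes on chromosome 5 and 5 Gbp genes on each of chromosomes 3 and 5. Chromosome 14 held a run of 6 genes with 4 Phf11 genes and Setdb2, and chromosome 15 a run of 4 Apol genes. Runs of 3 were Mx1, Mx2 and Tmprss2 on chromosome 16, Parp14, Dtx3l and Parp9 on the same chromosome, Psmb9, Tap1 and Psmb8 on chromosome 17, and Cxcl9, Cxcl10 and Cxcl11 on chromosome 5. Most of these runs are gene families of duplicated origin, so their members are not independent items, and reads of close copies may be shared.

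Outside the antiviral programme, most immediate early genes also rose. These genes, mostly transcription factors switched on within minutes of a stimulus, had 24 of 31 tested members higher and 2 lower (median 0.98). Jun went from 34.5 and 36.8 to 107 CPM and Junb from 36.6 and 32.9 to 105 CPM; both are subunits of AP-1. Arc went from 7.33 and 7.29 to 37.8 CPM, Klf6 from 119.7 and 116 to 247 CPM and Mafk from 7.6 and 8.81 to 37.6 CPM. Jund, the least inducible AP-1 member, had 118, 116 and 118 CPM (adjusted p = 0.924). Feedback inhibitors of MAP kinase signalling had 10 of 18 members higher and 3 lower (median 0.48). The phosphatase Dusp5 went from 7.49 and 6.41 to 59.2 CPM, Dusp6 from 20.1 and 19.7 to 51 CPM and the EGF receptor inhibitor Errfi1 from 58.8 and 56.5 to 237 CPM. Dusp1 had 12.1, 13.2 and 11.3 CPM and did not pass (adjusted p = 0.302). No library at 2 h without interferon was analysed here, so time in culture and handling cannot be told apart from interferon for these genes or any other.

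Targets of SRF and YAP, factors that follow the actin cytoskeleton, had 25 of 29 tested members higher and 2 lower (median 0.60). Ctgf went from 108 and 111 to 475 CPM and Cyr61 from 84.5 and 84.9 to 289 CPM; both encode matricellular proteins. Vcl, the focal adhesion protein vinculin, rose from 532 and 524 to 1264 CPM and Fhl2 from 70.5 and 71.5 to 203 CPM. TGF-beta and BMP targets had 11 of 21 higher and 4 lower. Inhba, which encodes the activin A subunit, rose from 7.72 and 8.21 to 24.4 CPM. Growth factors and their receptors (median 0.10) had 12 of 37 higher (32.4%) and 8 lower (21.6%), against 19.1% and 17.2% over all tested genes. The EGF family ligands Hbegf and Ereg rose from 12.2 and 12.9 to 108 CPM and from 9.15 and 9.0 to 59.6 CPM. Pdgfb rose from 2.38 and 2.06 to 14.7 CPM, while the receptor gene Pdgfra fell from 118 and 112 to 58 CPM (log2 change -0.99 ± 0.066) and Pdgfrb from 206 and 203 to 138 CPM.

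Ranked by CPM gained, which favours abundant and long transcripts, another class of gene joined the antiviral ones. Among called genes the top 8 were Actb, Thbs1, Ahnak, Actg1, Eef1a1, Ifit1, Irgm1 and Vcl. Thbs1, which encodes the matrix protein thrombospondin 1, went from 329.8 and 315 to 1938 CPM (6.01-fold, adjusted p = 3.42e-26). The cytoskeletal actins went from 3734 and 3661 to 5330.0 CPM (Actb) and from 2818 and 2753 to 4170.3 CPM (Actg1). The elongation factor Eef1a1 went from 8585 and 8423 to 9879 CPM, a call that was lost without 0 h replicate 2 (adjusted p = 0.0628). The largest losses were those of Rpph1, the RNA of RNase P (7774, 7709 and 6173 CPM), Col1a2 and Col1a1, Scd2, Cxcl12, Lrp1, Plec and Slc38a2. Col1a2 fell from 3192 and 3211 to 2606 CPM and Col1a1 from 942 and 1114 to 683 CPM. Both encode chains of type I collagen. Of 37 collagens and matrix genes, 8 were higher and 8 lower (21.6% each), near the 19.1% and 17.2% over all tested genes. Timp3 and Timp1, inhibitors of matrix proteases, rose from 135 and 127 to 453 CPM and from 126 and 127 to 245 CPM.

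Falls were fewer and shallower, and the 12 largest among genes with at least 5 CPM at 0 h had varied roles. G0s2, an inhibitor of fat breakdown, had 5.66 and 5.12 CPM at 0 h and 0.674 CPM at 2 h (log2 change -2.98 ± 0.36, adjusted p = 1.93e-07). Lipe, which encodes hormone-sensitive lipase, also fell, from 6.1 and 6.85 to 2.02 CPM. Pde4b, a phosphodiesterase that degrades cyclic AMP, fell from 11.7 and 11.9 to 2.14 CPM (log2 change -2.46 ± 0.17, adjusted p = 3.40e-13). Bmf, a pro-apoptotic BH3 protein, fell from 14.1 and 13 to 3.6 CPM and Mn1, a transcriptional coregulator, from 13.5 and 14.8 to 4.12 CPM. Adra1d, Clec14a, Gpr146, Rab3a and Gprin3 had log2 changes of -1.7, -1.68, -1.62, -1.62 and -1.57. In every one of these 12 genes the 2 h library lay below both 0 h libraries, which the choice of genes required.

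**Figure D3:**
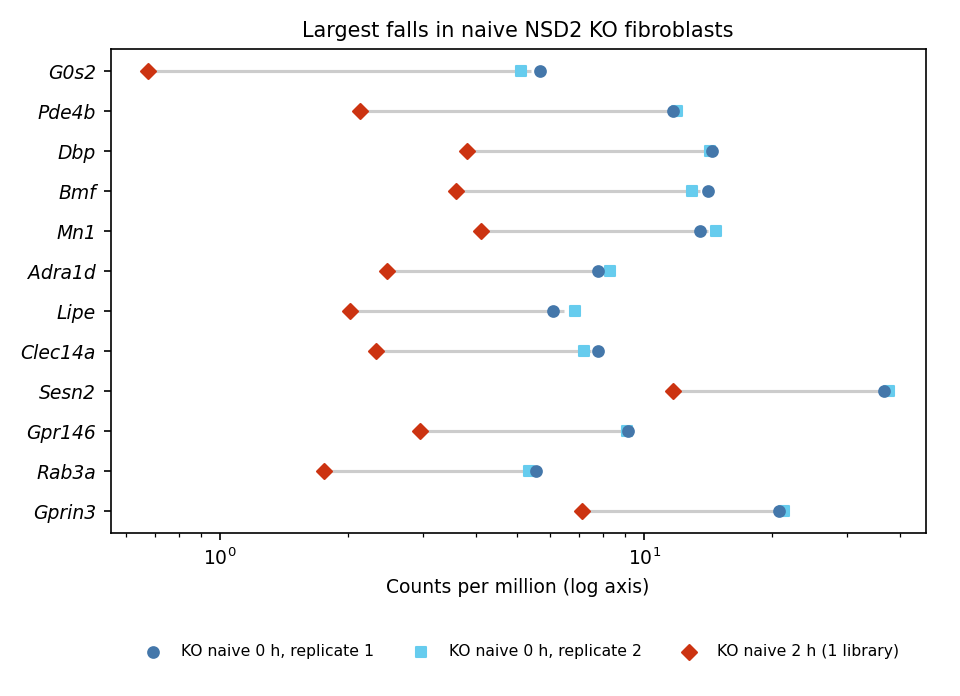
CPM (log axis) of the 12 largest falls in naive KO cells, with the 2 libraries at 0 h as circles and squares and the single 2 h library as diamonds. Each diamond lies to the left of both 0 h values, which the choice of genes required. G0s2 went from 5.66 and 5.12 to 0.674 CPM and Sesn2 from 36.6 and 37.6 to 11.7 CPM.

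Circadian clock genes (median -0.36) had 2 of 17 tested members higher (11.8%) and 7 lower (41.2%), against 19.1% and 17.2% over all tested genes. Dbp, a clock output factor, fell from 14.5 and 14.2 to 3.82 CPM, and its relative Tef from 75.2 and 76.1 to 44.4 CPM. Per3 fell from 17.1 and 15.9 to 8.2 CPM and Cry2, another repressor arm gene, from 11.8 and 11.5 to 6.52 CPM. The core activators Arntl and Clock had log2 changes of 0.12 and 0.020 and did not pass (adjusted p = 0.214 and 0.83).

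Targets of ATF4 and the unfolded protein response, which answer amino acid shortage and stress of the endoplasmic reticulum, had 14 of 30 members lower and 5 higher (median -0.13). Sesn2, an inhibitor of mTORC1, fell from 36.6 and 37.6 to 11.7 CPM (log2 change -1.67 ± 0.095, adjusted p = 5.39e-15). Trib3 fell from 78.7 and 74 to 29.1 CPM, Chac1 from 33.6 and 34.7 to 16.4 CPM and Ddit3, which encodes CHOP, from 43.4 and 46 to 26.1 CPM. The amino acid synthesis genes Asns, Psat1 and Phgdh did not pass, with log2 changes of 0.035, 0.00032 and -0.095. Of 21 targets of FOXO factors and the glucocorticoid receptor, 7 fell and 6 rose; Ddit4, another mTORC1 inhibitor, fell from 38.4 and 36.3 to 17.9 CPM and the kinase gene Sgk1 rose from 64.7 and 63 to 147 CPM. Of 22 p53 targets, 7 fell and 5 rose, among them Trp53inp1 (175, 165 and 106 CPM) and Plk2 (151, 143 and 259 CPM). Over all tested genes 19.1% rose and 17.2% fell. These shares were 16.7% and 46.7% for the ATF4 list. They were 28.6% and 33.3% for FOXO and glucocorticoid receptor targets, and 22.7% and 31.8% for p53 targets.

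Proliferation genes moved little. The replication and G1/S list had 10 of 33 members higher and 6 lower (median -0.0028) and the mitotic G2/M list 4 of 32 higher and 9 lower (median -0.018), against 19.1% higher and 17.2% lower over all tested genes. Mcm6, a subunit of the replicative helicase, rose from 219.7 and 216 to 349 CPM and Cdt1, which loads it, fell from 29 and 32.4 to 19 CPM. The proliferation marker Mki67 had 587, 617 and 594 CPM (adjusted p = 0.808). Cholesterol synthesis had 4 of 26 higher and 7 lower, hypoxia targets 6 of 20 higher and 3 lower, and Wnt, Notch and Hedgehog targets 3 of 19 higher and 4 lower. In the last list Notch3 fell from 49.7 and 48.2 to 27.7 CPM and Gli1 from 10.1 and 8.84 to 4.87 CPM. Of 9 interferon-induced metabolic genes tested, 8 rose, among them hexokinase 2 (Hk2, 55.4, 55 and 131 CPM) and Nampt, which makes NAD precursors (84.3, 77.6 and 190.5 CPM).

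The list of H3K36 methylation, its erasers and linked elongation factors had 6 of 26 members higher and 10 lower (median -0.12). These shares were 23.1% and 38.5%, against 19.1% and 17.2% over all tested genes. Hexim1, an inhibitor of the elongation kinase P-TEFb, fell from 30.5 and 26.5 to 14.5 CPM and the demethylase gene Kdm4b from 24.4 and 25.4 to 15.3 CPM. Ccnt2, a cyclin of P-TEFb, rose from 31.8 and 33.7 to 46.5 CPM, and the H3.3 histone gene H3f3b from 389 and 377 to 483 CPM. The main H3K36 methyltransferase Setd2 had 242, 269 and 233 CPM and did not pass (adjusted p = 0.0621).

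Among the genes that had a promoter window, the ISRE core shown above was in a larger share of the steepest risers. The steep classes hold gene families of duplicated origin, so their promoters are not independent items. RefSeq windows of 250 bases before to 50 after the start were found for 10870 of the 13802 tested genes (78.8%) and for 386 of the 515 genes that rose at least 2-fold (75%). Coverage is under 80%, so the check over the whole set is void for that reason, and the shares describe only genes with a window. GAAANNGAA on either strand was in 8.56% of tested genes with a window and in 8.56% of all 32851 windows. It was in 25.6% of genes that rose at least 2-fold (99 of 386) and in 7.32% of those that fell as much (12 of 164). By size, the share was 9.3% for rises under 2-fold, 15.4% from 2- to 4-fold (30 of 195), 15.9% from 4- to 8-fold (11 of 69), 38.2% from 8- to 64-fold (34 of 89) and 72.7% at 64-fold or more (24 of 33). Of the 109 matches in 69 genes that rose at least 4-fold, 72.5% began within 150 bases before the start, with a median position of -63. For the 620 matches in genes without a call these values were 45.8% and -131. Matches were pooled over the windows of a gene, and 2169 genes had more than 1 window, so a site can count more than once.

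Among genes with a window, other motifs were also more frequent in those that rose at least 2-fold than in all tested. The GAS letters TTCNNNGAA were in 14.8% of genes that rose at least 2-fold and in 8.28% of all tested, with 7.87% from 8- to 64-fold (7 of 89) and 27.3% at 64-fold or more (9 of 33). An NF-kB core, GGGNNTTTC, was in 9.07% and 5.15%. The CArG box bound by SRF was in 3.89% and 1.67%. Over all 32851 windows the shares were 8.3% for GAS, 4.36% for NF-kB and 1.63% for the CArG box. In 4 of the risers an ISRE match overlapped a GAS match by position, with positions pooled over the windows of a gene. Absence of these letters from a 300-base window says nothing about the factor elsewhere.

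**Figure D4:**
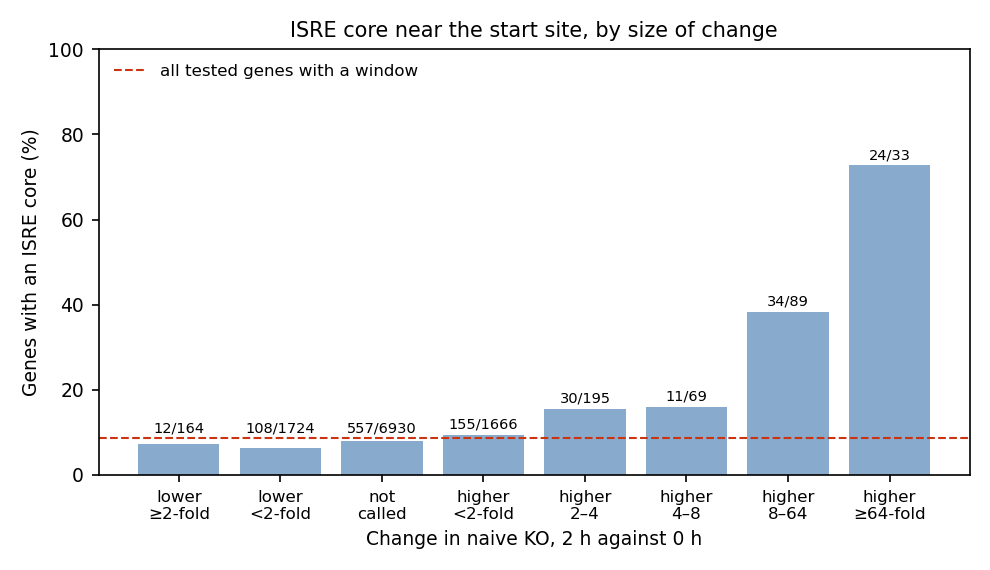
Share of genes (%, y axis) with the ISRE core near the transcription start, by direction and size of the change in naive KO cells (x axis), with the number of genes with the motif over genes with a window above each bar and the share over all tested genes as a dashed line. The share is 7.32% for falls of at least 2-fold and 72.7% for rises of at least 64-fold, against 8.56% over all tested genes with a window. Windows cover 78.8% of tested genes, so the shares describe only genes with a window.

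Naive WT cells given the same treatment also raised antiviral genes, but in most antiviral lists the greater part of the members rose by larger steps in KO. EdgeR called 4228 genes (30.6%) in WT, 2068 higher (15%) and 2160 lower (15.6%), with 261 rises (1.89%) and 194 falls (1.41%) of at least 2-fold. The WT and KO changes share no library. The difference between them was called for 2113 genes (15.3%), of which 1167 (8.46%) changed more upward in KO and 946 (6.85%) more upward in WT, at least 2-fold for 305 (2.21%) and 81 (0.587%). The split by direction depended on scaling. It was 1053 upward in KO and 1048 in WT with RLE size factors, and 1095 and 1017 without Rn45s and Lars2. The number called was 1814 without WT naive 0 h replicate 1. The single KO 2 h library enters every one of these differences. Ifit1 in WT had 1.16 and 2.26 CPM at 0 h and 46.2 and 41.9 CPM at 2 h. Its log2 change there was 4.93 ± 0.17, smaller than in KO by 3.65 ± 0.35 (adjusted p = 4.33e-09). Rsad2 reached 1.52 and 1.64 CPM in WT, from 0.197 and 0.405 CPM, and its change differed by 6.41 ± 0.64 (adjusted p = 6.77e-09). Gbp2 went from 4.48 and 4.86 to 10.8 and 9.28 CPM in WT, a difference of 5.8 ± 0.20 (adjusted p = 3.17e-19). Cxcl10 reached 3.07 and 2.68 CPM in WT, a difference of 6.72 ± 0.47 (adjusted p = 4.02e-12). For Gbp2 the untreated WT libraries were above the untreated KO ones and the treated WT libraries far below the treated KO one.

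By list, the rise was larger in KO for all 6 IFIT genes, all 4 Mx and viperin genes, 16 of 18 TRIM and nuclear body genes, 11 of 13 immunity-related GTPases, 31 of 39 further effectors and 20 of 24 MHC class I genes, with 0 members changed more upward in WT except Irgq, which fell. It was larger for 7 of 8 ADP-ribosyltransferase and Deltex genes (the other, Tiparp, rose more in WT), 5 of 9 OAS genes and 4 of 10 guanylate-binding proteins, or 8 of 10 with DESeq2. Irgq and Tiparp, both named after their values were seen, lost these calls without KO naive 0 h replicate 2 or WT naive 2 h replicate 1, each left out in turn, and Tiparp also with DESeq2, with no filter and without KO naive 0 h replicate 1, WT naive 0 h replicate 1 or WT naive 2 h replicate 2. The Mx and viperin count was 1 of 4 without WT naive 0 h replicate 1, with Rsad2 still called and Cmpk2 (adjusted p = 0.17), Mx1 and Mx2 not. Without WT naive 0 h replicate 2 the IFIT count was 5 of 6, where I830012O16Rik lost its call (adjusted p = 0.641). Median changes in WT were 2.88 for IFIT genes against 8.38 in KO, 1.47 against 7.04 for guanylate-binding proteins and 0.24 against 1.69 for MHC class I. Among at least 2-fold risers, the ISRE core was in 32.5% of those with a larger rise in KO (81 of 249). It was in 14% of those with no genotype difference called (17 of 121). These classes were not matched for the size of the KO rise. The share also climbed with that size, from 15.4% at 2- to 4-fold to 72.7% at 64-fold or more. Whether the contrast goes beyond size was not tested. Within the pathway, Irf9 went the other way, from 5.03 and 5.73 to 41.8 and 39.9 CPM in WT, a log2 change smaller in KO by 0.55 ± 0.12 (adjusted p = 0.00198), which was not called without WT naive 0 h replicate 1 (adjusted p = 0.117). Its CPM in KO, given above, was nevertheless higher than in WT at both 0 h and 2 h. Isg15 rose by 4.62 ± 0.22 in WT and its difference was not called (adjusted p = 0.186). The differences of Irf7, Usp18, Mx1 and Mx2 were called with all libraries (adjusted p = 0.00184, 0.00979, 9.38e-05 and 0.0149) and not without WT naive 0 h replicate 1 (adjusted p = 0.438, 0.0987, 0.0945 and 0.143). For Usp18 and Mx2 the call was also lost without KO naive 0 h replicate 2 (adjusted p = 0.0514 and 0.0501) and without WT naive 0 h replicate 2 (adjusted p = 0.061 and 0.0754). Trim25 was nearly uncounted in WT, with 0.256 CPM and no count at 0 h and 0.323 and 0.0992 CPM at 2 h, so the size of its genotype difference is not usable.

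**Figure D5:**
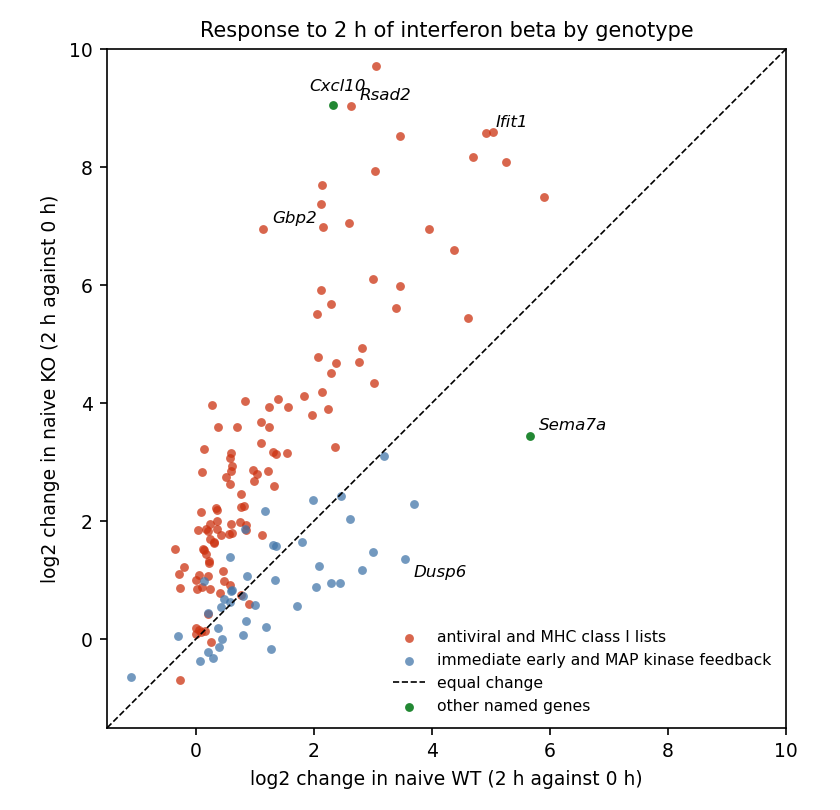
Log2 change at 2 h in naive WT cells (x axis) and naive KO cells (y axis) of antiviral and MHC class I genes (red), immediate early and MAP kinase feedback genes (blue) and 2 other named genes (green); the dashed line marks equal change, and genes are shown with at least 5 CPM in naive KO and 1 CPM in naive WT at either time. Antiviral genes lie mostly above the line, as Ifit1 does at 8.58 in KO and 4.93 in WT, and Dusp6 lies below it at 1.36 and 3.55.

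The direction was not the same in every list outside the antiviral ones. SRF and YAP targets had a larger change in KO for 16 of 29 and a lower one for 3, and NF-kB pathway genes a larger one for 11 of 25 and a lower one for 0. The larger count for SRF and YAP targets was 13 with RLE size factors and 12 without KO naive 0 h replicate 1. MAP kinase feedback genes went the other way. They had a median change of 1.0 in WT and 0.48 in KO, and 12 of 18 had a lower change in KO and 0 a higher one. Dusp6 reached 144 and 139 CPM in WT from 11.8 and 12.7 CPM, and its log2 change was smaller in KO by 2.19 ± 0.092 (adjusted p = 3.56e-17). The semaphorin gene Sema7a reached 45.1 and 41.6 CPM in WT and 27.1 CPM in KO. Its change was smaller in KO by 2.21 ± 0.24 (adjusted p = 3.84e-08). That is more than the 2 h levels differ, so its level at 0 h was higher in KO than in WT. Immediate early genes were split, with a higher change in KO for 8 of 31 and a lower one for 10. The higher count was 4 with DESeq2 and 5 without KO naive 0 h replicate 2, WT naive 0 h replicate 2 or either WT naive 2 h library, each left out in turn. Fosb rose less by 2.3 ± 0.65 (adjusted p = 0.0138), a call that was lost without KO 0 h replicate 2 (adjusted p = 0.138). Pde4b had 12.9, 12.4, 11.1 and 11.3 CPM in WT at 0 h and 2 h, levels close to those of untreated KO cells, and a log2 change of -0.19 ± 0.094 (adjusted p = 0.137); its change was lower in KO by 2.28 ± 0.20 (adjusted p = 4.85e-10). Pdgfra had a log2 change of 0.34 ± 0.10 in WT, so its change differed by -1.33 ± 0.12 (adjusted p = 1.45e-09). Thbs1 rose in WT by 0.55 ± 0.045 and by 2.04 ± 0.070 more in KO (adjusted p = 4.40e-19). Hgf, hepatocyte growth factor, rose by 2.33 ± 0.36 in WT from under 1 CPM, whereas KO had 34, 30.5 and 34.4 CPM (difference -2.23 ± 0.37, adjusted p = 5.27e-05).

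The naive response of KO cells was also set beside that of pretreated KO cells, whose 2 h side has 2 libraries, to ask whether earlier interferon altered it. EdgeR called 4346 genes (31.5%) on restimulation, 2475 higher (17.9%) and 1871 lower (13.6%), with 595 rises (4.31%) and 140 falls (1.01%) of at least 2-fold. Here the difference between the naive and the pretreated response was called for 1063 genes (7.7%), 406 larger upward in naive cells (2.94%) and 657 smaller (4.76%), by at least 2-fold for 53 (0.384%) and 23 (0.167%). The count fell to 543 without KO pretreated 0 h replicate 2, 554 without KO naive 0 h replicate 2 and 680 without KO pretreated 2 h replicate 1. The split by direction was nearer even in other fits. It was 509 larger and 563 smaller without Rn45s and Lars2, and 548 and 592 in a fit on the 7 KO libraries. The 2 changes share no library. Of the IFIT genes 2 of 6 rose more in naive cells, of the guanylate-binding proteins 4 of 10 and of the OAS list 6 of 9, with 1 OAS member rising less. These counts rest in part on 1 library, since without KO naive 0 h replicate 2 they were 1, 2 and 3. Ifit3 lost its call there (adjusted p = 0.251) and with DESeq2 (adjusted p = 0.17), and Oas1g, Oasl1 and Oas1b lost theirs without that library (adjusted p = 0.178, 0.163 and 0.207). The IFIT count was also 1 with DESeq2 and without pretreated 0 h replicate 1, pretreated 0 h replicate 2 or pretreated 2 h replicate 1, each left out in turn. Rsad2 in pretreated KO cells had 1.64 and 1.5 CPM at 0 h and 825 and 857 CPM at 2 h, and the naive change minus this one was -0.017 ± 0.47 (adjusted p = 0.996). Gbp3 had 2.69 and 3.24 CPM at 0 h and 103 and 101 CPM at 2 h, so naive cells rose more by 2.58 ± 0.24 (adjusted p = 2.39e-08). Usp18 likewise rose more in naive cells by 2.44 ± 0.15 (adjusted p = 1.92e-11), from 13.8 and 16.4 to 494 and 506 CPM in pretreated ones. For Gbp3 and Usp18 the pretreated 0 h libraries were already above the naive 0 h libraries. Irf9 rose more in naive cells by 1.2 ± 0.097 (adjusted p = 1.78e-09), and Irf1 rose less by 0.43 ± 0.082 (adjusted p = 0.00105). Other genes rose less in naive cells: Ppm1k, a mitochondrial phosphatase, by 1.44 ± 0.15 (adjusted p = 8.89e-08), the Notch ligand gene Dll1 by 1.61 ± 0.36 (adjusted p = 0.00573) and the innate receptor gene Nod1 by 1.41 ± 0.27 (adjusted p = 0.00111). Pde4b fell in both, with a difference of 0.0039 ± 0.24 (adjusted p = 1).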

How the data were processed

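Each library had 1 deposited table of raw read counts by gene symbol. RNA was extracted with TRIzol and made into NuGEN Ovation SP Ultralow libraries sequenced in pairs on a HiSeq2000, per the labels' protocols. Per the submitters' processing notes, the authors worked on the mm9 build with bcl2fastq 2.15, STAR 2.5.2b and HTSeq. No source used here gives the annotation or strand setting, so overlapping, antisense and near-identical genes are uncertain. Each table listed 24015 genes, and 5 HTSeq summary lines were left out; reads in no gene made up 35.1% to 41.3% and ambiguous reads 0.393% to 0.496% of uniquely aligned reads. Gene totals were 17170845 to 44116418.

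The 2 naive KO libraries at 0 h differed by more than sampling noise (chi-square over its degrees of freedom 3.61, or 2.73 without Rn45s and Lars2). Counts were scaled by TMM in edgeR 4.0.16 (R 4.3.3), genes were kept by filterByExpr with a minimum count of 10, and 13802 genes were tested with the quasi-likelihood test, fitting 8 group means to 15 libraries (7 residual degrees of freedom), with p-values adjusted by Benjamini-Hochberg within each comparison. The KO naive 2 h group has 1 library, assumed to vary like the other groups. Because of this group, the filter keeps a gene that has enough counts in 1 library. A gene silent at 0 h can therefore be tested through its 2 h count, which raises the share of tested list members that rose. SE is the log2 change divided by the square root of F. A fold from no count uses a floor of 3 counts over the group.

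The gene lists and the naming rule were chosen with earlier results of these data known. For the largest rises, falls, gains and losses, the rule required a called gene with the 2 h library outside both 0 h libraries. The rule takes the 12 largest rises and falls (at least 5 CPM in the higher group), the 8 largest CPM gains and losses, up to 5 called members per list with the smallest p, signalling genes and ligands with a count, and the 6 largest differences each way from WT and from pretreated cells. Promoters and gene order came from RefSeq on GRCm38.p6, matched by symbol; no coordinate of mm9 was used. Some genes are not reported here. Steps were tested on simulated counts. Alternatives were no filter, RLE size factors, other sample sets, DESeq2 1.42.0, a replicate block, Rn45s and Lars2 left out, each library left out, and other promoter windows; the single-window promoter check and the list counts under each alternative were chosen after seeing the data. Figures used matplotlib 3.10.9.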

Additional observations from a re-analysis of the deposited data

Results flagged for a closer look

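The naive response differed between KO and WT by a test of the difference itself for 2113 genes, each resting on the 1 KO library at 2 h. The largest differences upward in KO among genes with at least 5 CPM in a compared group were 8.84 for Gm14446, 6.72 for Cxcl10, 6.66 for Mx1, 6.41 for Rsad2, 5.8 for Gbp2 and 5.75 for Gm12250, on the log2 scale. In the other direction they were -2.3 for Fosb, -2.28 for Pde4b, -2.23 for Hgf, -2.21 for Sema7a, -2.19 for Dusp6 and -2.02 for Havcr2. Havcr2, the checkpoint receptor TIM-3, had 0.317, 0.772 and 0.262 CPM in naive KO cells, and its difference was not called without KO naive 0 h replicate 2 (adjusted p = 0.444).

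The naive and the pretreated KO responses differed by such a test for 1063 genes. The largest differences upward in naive cells were 4.86 for Oas1g, 3.55 for Apol9b, 2.86 for Ifi44, 2.73 for Oas1a, 2.58 for Gbp3 and 2.53 for Apol9a. In the other direction they were -1.61 for Dll1, -1.44 for Ppm1k, -1.41 for Nod1, -1.34 for Gata3, -1.32 for Mtus1 and -1.24 for Gm14137. Oas1g was not called without either naive 0 h library in turn (adjusted p = 0.0678 and 0.178). Gata3 was lost in 4 such fits (adjusted p = 0.0647, 0.081, 0.0925 and 0.0679) and Gm14137 in 1 (adjusted p = 0.0588).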

How the results depend on the processing

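The count of genes called at 2 h in naive KO cells was 5002 with all libraries and stayed within 1.5 times of that under every alternative run: 4996 with RLE size factors, 4993 without the filter, 3865 with DESeq2, 5038 without Rn45s and Lars2, 5261 in a fit on the 3 compared libraries and 4048 to 4396 without a 0 h library. The single 2 h library could not be left out. Of 222 named genes, 2 lost the call with DESeq2, 1 with RLE size factors, 1 without Rn45s and Lars2 and 3 without 0 h replicate 2; these were Col2a1, Actc1 and Eef1a1. The genotype difference gave 1517 calls with DESeq2 and 1596 to 1945 with a library left out. Of 157 named genes with that call, 25 lost it without WT naive 0 h replicate 1, and there the difference of Trim25 changed sign, running from -2.57 there to 4.14 without WT naive 2 h replicate 1 (at the former, adjusted p = 0.624), with no WT count left at 0 h. The naive minus pretreated count was 544 with DESeq2 and 543 to 974 with a library left out. The share of at least 2-fold risers with an ISRE core was 20.5% in a window of 150 bases before to 50 after the start (5.22% of all tested), 36.1% for at least 4-fold risers and 24.3% over genes with a single window (7.03% of all tested). The deviations of same-numbered replicates were at most weakly correlated (21 group pairs, correlations from -0.0185 to 0.0643). Such correlations cannot show whether these libraries share a culture, and the labels do not say. With the replicate block the counts were 5314, 2486 and 1538. Beyond the filter's choice of genes and the fewer libraries, the cause of these shifts was not tested. Depth limits what can be said of genes near 0 counts.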

Other observations

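Of the 260 genes that rose at least 4-fold, 108 were in none of the gene lists. The 8 with the largest CPM gains among them were picked out after their values were seen. Usp25, a deubiquitinase of antiviral signalling, went from 29.8 and 29.9 CPM at 0 h to 126 CPM at 2 h (log2 change 2.08 ± 0.068, edgeR adjusted p = 5.01e-21), and WT cells had a change of 0.27 ± 0.063. Ncoa7, an oxidation resistance gene, went from 18.3 and 16.6 to 78.9 CPM, with -0.13 ± 0.085 in WT. Setdb2, a histone H3 lysine 9 methyltransferase beside the Phf11 genes, went from 11.8 and 13.1 to 54 CPM, with -0.16 ± 0.095 in WT. The differences from WT were called for all 3 (1.81 ± 0.093, 2.32 ± 0.11 and 2.27 ± 0.13; adjusted p = 4.11e-15, 1.28e-15 and 4.11e-14). In contrast, the pseudokinase gene Trib1 went from 12.4 and 12.9 to 51.9 CPM in KO and changed by 1.81 ± 0.063 in WT, and no difference was called (adjusted p = 0.136).

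Has2, which makes the matrix sugar hyaluronan, went from 3.25 and 2.53 to 37.5 CPM (log2 change 3.74 ± 0.14). Fam46a, a poly(A) polymerase gene, went from 7.25 and 8.91 to 60.6 CPM, with a log2 change of 1.23 ± 0.087 in WT. AI607873, in the p200 run on chromosome 1, went from 1.19 and 1.24 to 71.4 CPM and Gm12185, beside Irgm1 on chromosome 11, from 1.39 and 1.52 to 49.6 CPM. All 8 lay above both 0 h libraries at 2 h, as did every gene called higher.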
